A study of Drosophila melanogaster with 2 samples.

Results

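The cytosolic ribosomal protein genes of Drosophila melanogaster were examined for binding of the gooseberry (gsb) fusion protein at their promoters. The members were chosen by symbol, as protein-coding genes named RpL or RpS with a digit or P, plus sta. They number 93 of the 13945 protein-coding genes that Ensembl release 115 places on the 6 chromosome arms. The gene named sop in older lists is RpS2 in this annotation and was included under that name. The family was picked with its promoter peaks already known, so its share of bound genes is a description of these libraries and was given no test.

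Chromatin immunoprecipitation with sequencing (ChIP-seq) was done on whole embryos aged 0 to 18 h from transgenic flies that make gsb fused to enhanced green fluorescent protein (eGFP), with an antibody against GFP. There was 1 group of 2 biological replicates, which share 1 donor strain, and all embryos carried the fusion. The labels refer to a control, whose data are not analysed here, and they do not say how the tagged protein compares with the native one. The embryos were whole, so strong binding in a few cells and weak binding in many cells cannot be told apart.

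The gsb protein is a transcription factor of the Pax family, with a paired domain and a homeodomain, known as a segment polarity gene product in the embryonic epidermis and nervous system. Cytosolic ribosomal proteins join ribosomal RNA to make the large and small ribosomal subunits, and most of their genes are transcribed at a high rate in every growing cell. In flies many of these promoters start transcription within a stretch of pyrimidines, the TCT initiator, which works with the TBP-related factor Trf2, and many carry the element read by the factor DREF or the one read by M1BP.

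Start regions were chosen to show the letters found at members with and without a gsb-eGFP peak. Each run goes from 90 bases before to 25 bases after an annotated transcription start site, 5′ to 3′ on the gene's own strand, from the RefSeq copy of Release 6 (dm6). Capitals mark TATCGATA (the DREF element), GGTCACACT (the M1BP element) or CTTTNT within 10 bp of the start (the pyrimidine initiator). The members with a peak come first, from the strongest, RpS27, whose run holds none of these letters, through RpL34b, RpS25, RpS6 and RpL27A.
RpS27: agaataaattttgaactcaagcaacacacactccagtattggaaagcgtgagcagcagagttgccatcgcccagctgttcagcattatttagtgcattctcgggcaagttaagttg
RpL34b: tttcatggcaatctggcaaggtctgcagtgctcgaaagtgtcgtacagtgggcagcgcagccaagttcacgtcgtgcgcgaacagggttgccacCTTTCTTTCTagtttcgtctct
RpS25: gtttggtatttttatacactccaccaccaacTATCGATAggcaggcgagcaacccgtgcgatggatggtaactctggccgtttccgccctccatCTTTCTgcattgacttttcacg
RpS6: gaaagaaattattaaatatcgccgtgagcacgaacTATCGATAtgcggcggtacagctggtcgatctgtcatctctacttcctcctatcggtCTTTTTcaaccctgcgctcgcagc
RpL27A: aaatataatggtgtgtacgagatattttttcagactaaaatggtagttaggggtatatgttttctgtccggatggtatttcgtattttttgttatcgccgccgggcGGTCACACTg
The next runs compare the neighbouring copies RpS14b, which had a peak, and RpS14a, which did not, and add RpL10Ab and RpS9, also without a peak.
RpS14b: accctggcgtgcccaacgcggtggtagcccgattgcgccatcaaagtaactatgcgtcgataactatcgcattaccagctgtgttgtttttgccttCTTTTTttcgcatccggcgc
RpS14a: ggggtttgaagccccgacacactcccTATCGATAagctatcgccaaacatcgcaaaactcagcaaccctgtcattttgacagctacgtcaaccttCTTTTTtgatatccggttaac
RpL10Ab: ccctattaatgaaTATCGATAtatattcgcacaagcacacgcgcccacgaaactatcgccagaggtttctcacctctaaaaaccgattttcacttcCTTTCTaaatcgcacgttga
RpS9: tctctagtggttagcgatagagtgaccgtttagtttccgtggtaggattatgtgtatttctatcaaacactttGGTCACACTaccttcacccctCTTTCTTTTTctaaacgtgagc
The coordinates on dm6 are RpS27 chr3R:25247489-25247604 (minus strand), RpL34b chr3R:9401201-9401316 (minus strand), RpS25 chr3R:11216262-11216377 (minus strand), RpS6 chrX:7901306-7901421 (minus strand), RpL27A chr2L:4458339-4458454 (minus strand), RpS14b chrX:7934808-7934923 (plus strand), RpS14a chrX:7933652-7933767 (plus strand), RpL10Ab chr3L:11822761-11822876 (plus strand) and RpS9 chr3L:9511506-9511621 (minus strand).

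The deposited lists hold regions ranked by the irreproducible discovery rate (IDR), which measures how well a region's rank is repeated between sets of reads. The joint list, made from both replicates together, has 2877 regions on the 6 arms, all at a global IDR of 0.01 or less, and 1607 of them have their summit within 1 kb of a protein-coding start. The replicates' own lists hold 1864 regions in replicate 1 and 1701 in replicate 2. The ranked candidate regions, passing or not, number 139318 for the joint set. Signal is the authors' peak caller value for each region, in a scale that the sources used here do not give, and it is used here to describe and rank regions. The read depth of the libraries is unknown from these lists.

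Of the 93 ribosomal protein genes, 50 had a joint peak whose summit lay within 1 kb of a start. That is 53.8% of members (exact 95% interval 43.12 to 64.16, Clopper-Pearson, counting error only), beside 1931 of all 13945 genes, or 13.8%. With the summit required within 200 bp of the start, 46 members (49.5%) and 7.63% of all genes had a peak. In the authors' stricter conservative list the count was 45 members (48.4%), and 13.2% of all genes. Some promoters are shared with a neighbour: when no other gene's start could lie nearer to the summit, 46 members (49.5%) and 10.3% of all genes remained. A stricter limit on the global IDR, 0.001, kept 26 members and 1006 of all genes. The members' share was above the share of all genes under each of these rules.

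Both replicates gave the same order between members and all genes. In the list of replicate 1, 39 members (41.9%) had a promoter peak, beside 9.89% of all genes. In the list of replicate 2 there were 42 members (45.2%), beside 9.46% of all genes. The lists of both replicates held 31 members (33.3%), beside 7.49% of all genes. Among the 50 members in the joint list, 31 (62%) were in both replicate lists, and among the 1931 genes of the joint list 1041 (53.9%) were.

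The genes of the 2 subunits were bound at shares whose intervals overlap. Of 50 large subunit genes, 29 had a peak (58%, interval 43.21 to 71.81). Of 39 small subunit genes, 18 had one (46.2%, interval 30.09 to 62.82). The signal of those peaks had a median of 137 in the large subunit (range 73.6 to 353) and 136.5 in the small subunit (range 91.9 to 408.5). Of the 4 genes named for the stalk, the flexible arm of the large subunit that recruits translation factors, RpLP0, RpLP1 and RpLP0-like had a peak and RpLP2 did not. Of the genes whose product is fused to ubiquitin, RpS27A had a peak (102) and RpL40 did not (strongest candidate region 40.4).

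RpS27, which codes for a zinc-binding protein of the small subunit, had the strongest member peak. Its joint signal was 408.5, with 242 in replicate 1 and 166 in replicate 2, and the summit lay 26 bp before the start at chr3R:25247407-25247654. Among large subunit genes, RpL34b came first with a joint signal of 353, and its replicates were level at 177 each. RpL32, a large subunit gene often used as a loading reference in fly work, had 342, with 170 in replicate 1 and 163 in replicate 2. These 3 stood above the other members in the joint list and in replicate 2, while in replicate 1 RpL7 (172) lay between RpL34b and RpL32.

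RpL7 had a joint signal of 277, with 172 in replicate 1 and 109 in replicate 2. RpL23A, a protein at the exit of the nascent peptide tunnel, had 270.2, with 139.7 in replicate 1 and 128 in replicate 2. RpL41, the smallest protein of the ribosome, had 250.2, with 115 in replicate 1 and 128 in replicate 2. The order of these neighbours is not kept between the replicates, since RpL41 is above RpL7 in replicate 2 and below it in replicate 1. RpL14 had a joint signal of 213, with 111 in replicate 1 and 104 in replicate 2.

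In the small subunit RpS28b followed RpS27 with a joint signal of 232, from 141 in replicate 1 and 94.3 in replicate 2. RpS21 had 213, and here replicate 1 was the lower, at 80.6, beside 123 in replicate 2. RpS29 had 193, with 97.5 in replicate 1 and 97.1 in replicate 2, and RpS20 had 184, with 97.4 in replicate 1 and 82 in replicate 2. RpLP0, the base of the stalk, had a joint signal of 224, with 102 in replicate 1 and 129 in replicate 2. Like RpS21, it was higher in replicate 2, whereas RpS27 and RpS28b were higher in replicate 1.

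**Figure D1:**
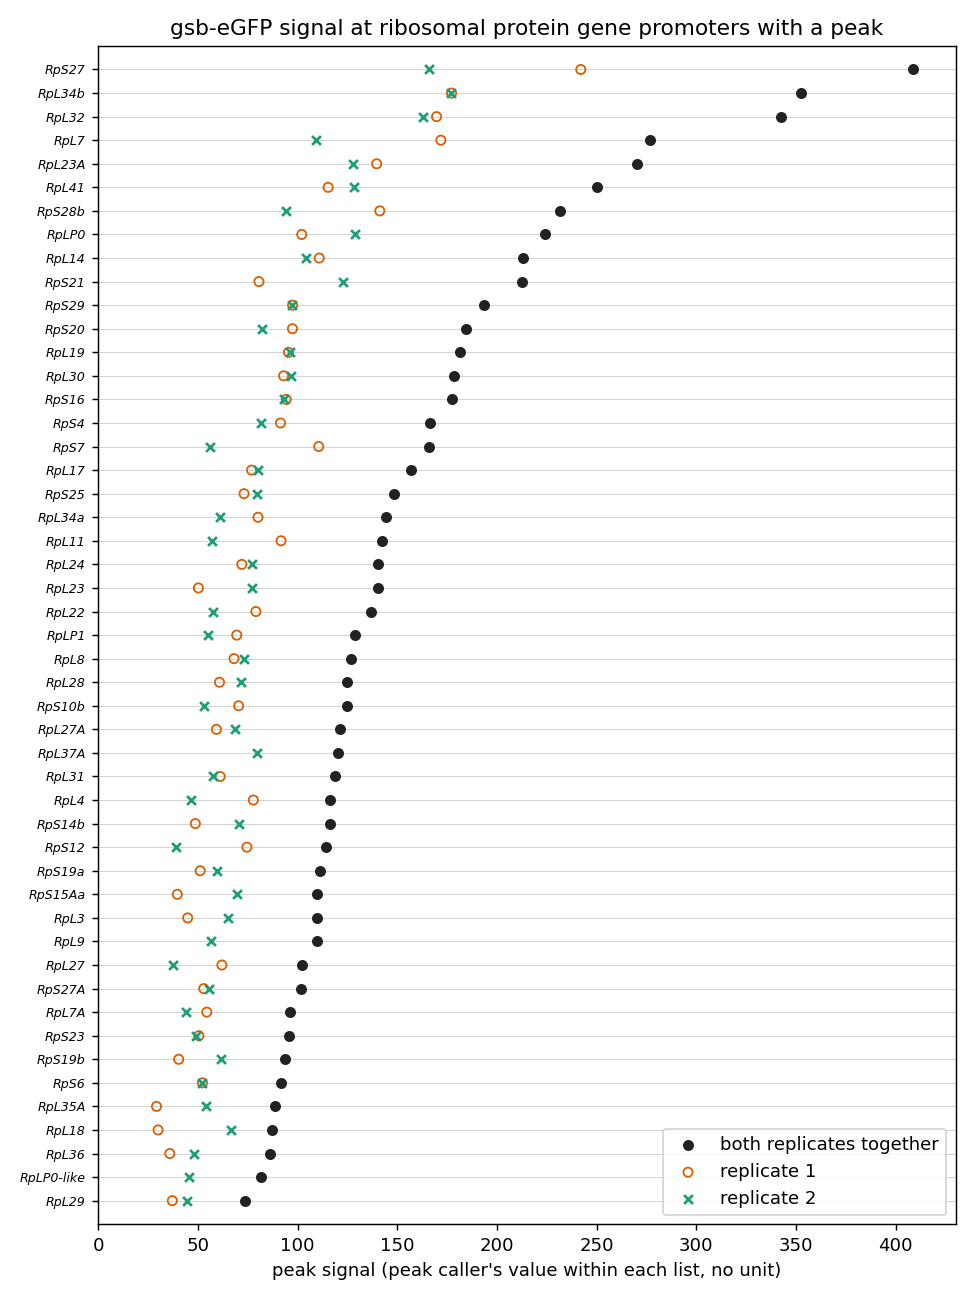
Signal of the strongest promoter peak (horizontal axis, the peak caller's value, no unit) for the ribosomal protein genes with a peak, of which 1 is not drawn, for both replicates together (filled circles), replicate 1 (open circles) and replicate 2 (crosses). The joint signal runs between 73.6 at RpL29 and 408.5 at RpS27; a replicate marker is left out where no region of that replicate holds the joint summit.

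Across the 50 members the joint signal ran between 73.6 (RpL29) and 408.5, with a median of 133 (quartiles 110 and 181). All 1607 promoter peaks had a median of 122 (quartiles 89.6 and 198) and reached 2108. The strongest peak of each of the 1931 genes with one had a median of 134, and the members' median stood at percentile 49.4 of those. It stood at percentile 54.9 of all promoter peaks, and in the replicates' own lists at 43.3 in replicate 1 and 41.5 in replicate 2. Members above the upper quartile of all promoter peaks numbered 10, and those below the lower quartile numbered 5. None was among the 100 strongest promoter peaks, and RpS27 ranked 118. The members' peaks were therefore of middling signal in this list, although many members had one.

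Signal at the members leaned to neither replicate at the median, though single members differed. A region of each replicate held the joint summit at 47 of the 50 members, and there the ratio of replicate 1 to replicate 2 had a median of 1.00 (range 0.451 to 1.97). It was higher in replicate 1 at 25 members and lower at 22, and 35 of the 47 lay within 1.5 times. Over the 47 members the signals of the replicates had a Spearman rho of 0.697 and a Pearson r of 0.815, given as a description, since the points share the 2 libraries. The joint signal was 0.989 of the sum of both replicates at the median member (range 0.881 to 1.1). The joint signal therefore adds no measurement to those of the replicates.

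Not every member was in both replicate lists. RpL34a, RpS10b, RpS12, RpL3, RpL7A and RpL36 were in the list of replicate 1 and not of replicate 2. The 10 in that of replicate 2 alone included RpL23, RpL37A, RpS14b, RpS15Aa, RpL9, RpS19b, RpL35A, RpL18 and RpLP0-like. RpS19a, RpL27 and RpL29 were in the joint list and in neither replicate list. RpL37A and RpL9 had no candidate region at all near the start in replicate 1, with a signal of 79.8 and 56.4 in replicate 2. RpL37A, RpL9, RpL35A, RpL18 and RpLP0-like were also missing from the conservative list.

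Most of the members' summits lay close to a start. Distances are to the nearest annotated start of the gene, and 42 of the 50 peaks were 364 bp wide, the median width of the list. Of the 50 members with a peak, 31 (62%) had the summit within 50 bp of the start, beside 221 of 1931 (11.4%) among all genes with a peak. Within 100 bp the counts were 43 members (86%) and 497 genes (25.7%). Within 200 bp they were 46 members (92%, interval 80.77 to 97.78) and 1009 genes (52.3%). The median distance was 37.5 bp at the members and 185 bp at all genes with a peak. The median position at members was 28 bp before the start (quartiles -55 and 4.75 bp).

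The members' summits lay before the start at 35 members (70%) and at 1502 of 1931 genes (77.8%), so the upstream side held a like share of both. What differed in these counts was the distance: 29 members (58%) and 352 genes (18.2%) had the summit in the 100 bp before the start. The 4 members with a summit beyond 200 bp included RpL23 (-271 bp), RpLP0-like (-606 bp) and RpS19b (-935 bp). Another gene's start lay nearer to the summit at 4 members, including RpS20 (CG17271), RpLP0-like (14-3-3zeta) and RpS19b (CG5854). Another start lay within 200 bp of the summit at 12 of the 50, among them RpS27A (Ip259, 45 bp away, as far as its own start) and RpL14 (Nelf-E, 72 bp). At RpL34b the summit lay 129 bp before its own start and 140 bp from that of CG8132, and at RpL23 the neighbour CG13531 was 285 bp away. Near the summits of other strong members were Nup37 (118 bp, at RpS27), Ripalpha (64 bp, at RpL7) and NaCP60E (116 bp, at RpL41). Where a neighbour's start is nearer or about as near, the peak cannot be given to the ribosomal protein gene rather than its neighbour.

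**Figure D2:**
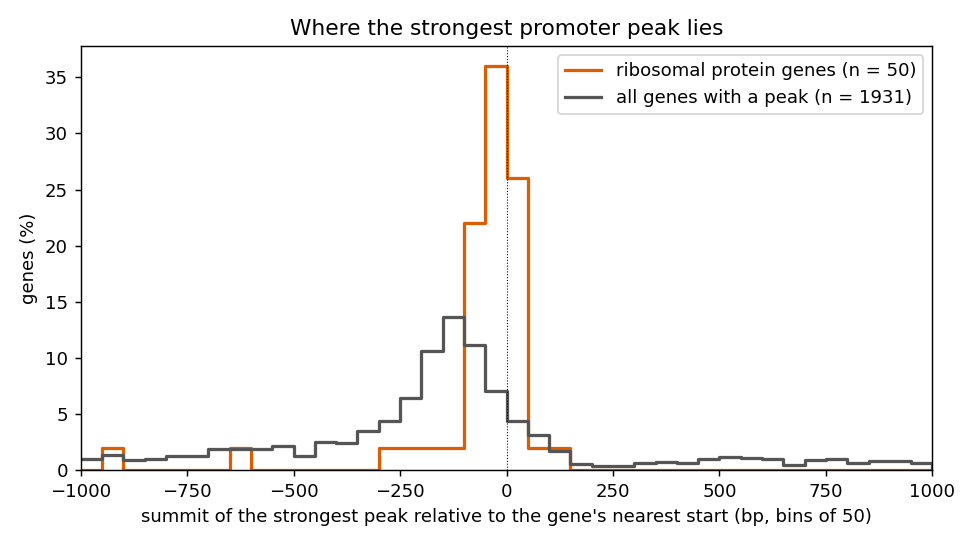
Position of the strongest promoter peak's summit relative to the gene's nearest start (horizontal axis, bp in bins of 50, negative before the start) as the percent of genes (vertical axis), for the 50 ribosomal protein genes and for all 1931 genes with a peak. The members' line is highest in the bins next to the start, with 31 of 50 within 50 bp, while the line of all genes is broader and peaks further upstream.

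A second peak stood near the start of 6 members. RpS28b had one of signal 135 at -797 bp, RpL34b one of 129 at 901 bp, and RpL24 one of 76.7 at 606 bp. RpS12 had 2 more, of 102 at -620 bp and 4.69 at 156 bp. RpL18 had one of 24.5 at -112 bp and RpL8 one of 2.46 at -834 bp. In each case the strongest peak was the one nearest to the start.

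Candidate regions lay near the starts of most genes, members or not. One lay within 1 kb of a start at 37 of the 43 members without a joint peak. With those of the 50 this gives 87 of 93 members (93.5%), beside 89.8% of all genes, so having one does not set the members apart. The strongest such region at the 37 had a median signal of 54.6 (range 26.4 to 154), and over all 10598 genes with a candidate region and no peak, members included, the median was 42.5. Of the 37, 26 were above that median. The summit was within 200 bp of the start at 21 of the 37 (56.8%) and at 2538 of the 10598 genes (23.9%). Over all 87 members the strongest region had a median signal of 95.6, beside 46 over 12529 genes, and 73 of the 87 were above the median of all genes.

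**Figure D3:**
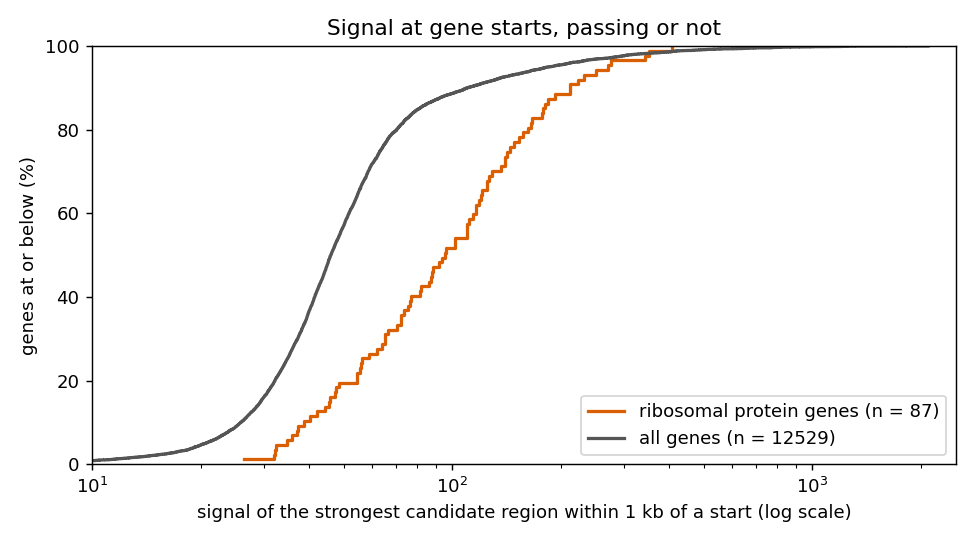
Cumulative percent of genes (vertical axis) by the signal of their strongest joint candidate region within 1 kb of a start (horizontal axis, log scale), passing or not, for 87 ribosomal protein genes and 12529 genes in all. The members' curve lies to the right over most of the range (medians 95.6 and 46), and the curve of all genes reaches further at the top, to 2108.

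Members close to the threshold on either side had like signals. Just inside were RpS12 (global IDR 0.00996, signal 114), RpL29 (0.0058, 73.6), RpL7A (0.00415, 96) and RpL18 (0.0038, 87.3). Just outside were RpL13 (0.0119, 81.7), RpS18 (0.012, 72), RpLP2 (0.0158, 75.5) and RpS5a (0.0159, 87.9). RpS5a and sta, the gene of the small subunit protein RpSA, were in the list of replicate 1 alone, and RpLP2 was in that of replicate 2 alone. At RpS5a replicate 1 gave 55.8 and replicate 2 gave 28.4, and at RpLP2 replicate 1 gave 28.2 and replicate 2 gave 60.1. The summit at RpL13 lies 71 bp from the start of its neighbour Dref, the gene of the factor that reads TATCGATA.

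RpL13A had the highest signal of the members without a peak. Its candidate region at chr3R:5624243-5624606 had a joint signal of 154, with 69.6 in replicate 1 and 89.4 in replicate 2, a summit 49 bp before the start and a global IDR of 0.0005. That meets the threshold, yet the region is not in the joint list. The same holds for 78 of the 2955 joint candidate regions at or under that IDR. The deposited notes name 1 more input file for the thresholded lists than for the ranked ones, without saying what it is, and its part in these regions was not tested.

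At RpL10, RpL15, RpL21, RpL38, RpL5 and RpS3A no start had a candidate region within 1 kb. Within 50 kb of these 6 genes there were 1 to 28 candidate regions. Around the other 87 members there were 74 to 165, with a median of 135. The surroundings of these 6 were thus poor in candidate regions of any kind. Mappability and read depth there were not tested, so no statement on binding at these 6 is made.

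Members with related symbols, such as RpS14a and RpS14b or RpL7 and RpL7-like, were compared as pairs. They were paired by name, so a partner named like need not be a second copy of the same gene. The 14 pairs compared hold 27 members, both partners counted, and 13 of them had a peak (48.1%, interval 28.67 to 68.05), beside 37 of the other 66 (56.1%, interval 43.3 to 68.26). Of the 14 pairs, 8 had a peak at 1 partner, 3 at both and 3 at neither. The split to be expected from the members' share was not worked out, so these counts are not read as a trait of copies. RpS28b is in 2 of those pairs.

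In the pairs with a peak at 1 partner, RpL7 had a signal of 277 and RpL7-like 45.5. RpS28b had 232, RpS28a 70.1 and RpS28-like 38.6, and RpS10b had 125 and RpS10a 34.7. RpL22 had 137 and RpL22-like, its testis-enriched relative, 42.1. RpL24 had 141, and RpL24-like, named for its likeness to it, had 32.5. RpS15Aa had 110 and RpS15Ab 37.2. The strongest region at each of these partners without a peak was a candidate region that did not pass. Its summit lay at -423 bp (RpL7-like), -135 bp (RpS28a), -838 bp (RpS28-like) and 948 bp (RpS10a). At the rest it lay at 691 bp (RpL22-like), 989 bp (RpL24-like) and 467 bp (RpS15Ab). Another gene's start was nearer at RpL7-like (JhI-21), RpS28a (Axn), RpL24-like (Dtd) and RpS28-like (CG3769). These values therefore need not be signal at the partner's own start.

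RpS14a and RpS14b lie side by side on the X chromosome with starts 1156 bp apart and 443 of 453 coding bases the same (97.8%). RpS14b had a signal of 116, with 48.7 in replicate 1 and 70.8 in replicate 2, and its summit lay 51 bp before its start. RpS14a had a strongest region of 32.1 at -949 bp. The printed runs show TATCGATA and the pyrimidine stretch at RpS14a, and the pyrimidine stretch alone at RpS14b. Reads from the shared coding bases could be placed at either copy, and the sources used here do not say how the authors treated such reads.

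Both partners had a peak at RpL34a (144) and RpL34b (353), at RpS19a (111) and RpS19b (93.8), and at RpLP0 (224) and RpLP0-like (81.5). At RpS19b and RpLP0-like the summit was nearer to another gene, as given above. Neither partner had a peak at RpL10Aa (31.9) and RpL10Ab (54.6), at RpL37-1 (58.8) and RpL37-2 (45.8), or at RpS5a (87.9) and RpS5b (55.7). The region's summit lay at -435 bp at RpL10Aa and 787 bp at RpL37-2, and within 200 bp of the start at the others.

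Members and genes in general had larger shares of peaks next to a close neighbour. With another protein-coding start within 1 kb, 37 of 59 members (62.7%, interval 49.15 to 74.96) had a peak, beside 1190 of 5985 genes (19.9%). Without one, 13 of 34 members (38.2%, interval 22.17 to 56.44) and 741 of 7960 genes (9.31%) had a peak. A peak near the starts of neighbouring genes was counted for each of them, so the counting itself raises the share next to a neighbour. The members' intervals also overlap. Small nucleolar RNA genes, whose products guide the chemical modification of ribosomal RNA, lie inside 29 members, of which 18 had a peak (62.1%, interval 42.26 to 79.31), and 32 of the 64 other members had one (50%, interval 37.23 to 62.77). Among all 84 protein-coding genes that hold one, members included, 36 had a peak (42.9%). By chromosome arm, members with a peak numbered 9 of 19 on 2L, 10 of 21 on 2R, 8 of 14 on 3L, 13 of 23 on 3R, 10 of 15 on X and 0 of 1 on 4. Over all genes the share on each of the 5 larger arms lay between 12.2% on X and 15.3% on 3L, and on chromosome 4 it was 1 of 80 genes (1.25%).

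The letters of 3 known ribosomal protein promoter elements were counted at members with and without a peak. TATCGATA was searched on both strands from 250 bases before to 50 after the start. It was in 15 of 50 members with a peak (30%), 13 of 43 members without (30.2%) and 9.24% of all 13945 promoters. CTTTNT was searched on the gene's own strand, starting within 10 bp of the start. It was in 17 of 50 (34%), 17 of 43 (39.5%) and 2.85% of all promoters. On the opposite strand it was in 1 of 50 members with a peak, 0 of 43 without and 2.85% of all promoters.

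GGTCACACT, searched on both strands in the same window, was in 7 of 50 members with a peak (14%, interval 5.819 to 26.74), 3 of 43 without (6.98%, interval 1.463 to 19.06) and 6.07% of all promoters. Of the members with a peak, 19 of 50 had none of these 3 motifs, and of those without a peak 16 of 43. RpS27, the strongest, is one of the 19. RpS25 and RpS6 carried TATCGATA and CTTTNT and had signals of 148 and 91.9, whereas RpL10Ab and RpS14a carried both without a peak. Each motif was found on both sides, among members with a peak and among members without.

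**Figure D4:**
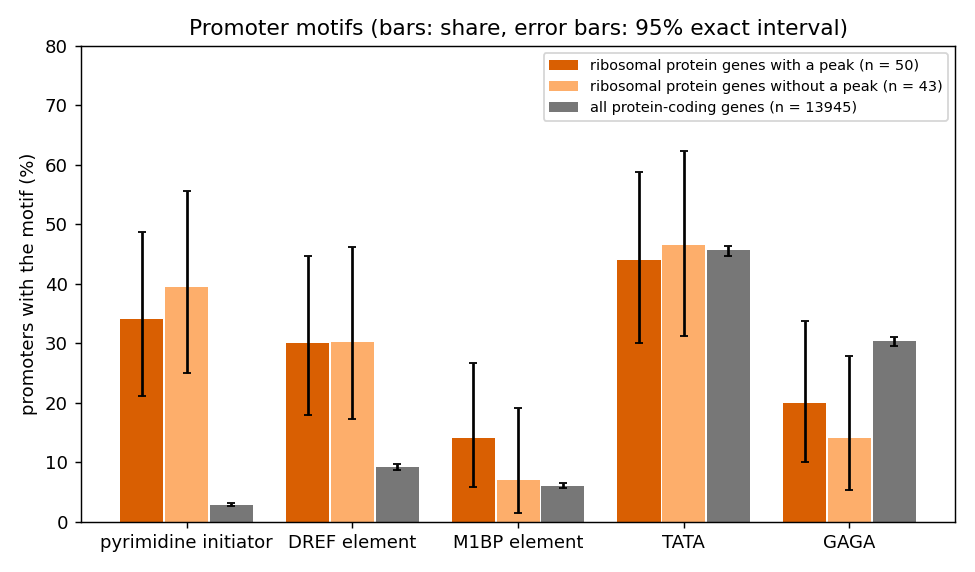
Percent of promoters (vertical axis) that hold each motif, for the 50 ribosomal protein genes with a peak, the 43 without and all 13945 protein-coding genes, with exact 95% intervals as error bars. The initiator was searched within 10 bp of the start and the others from 250 bases before to 50 after it; bars of members with and without a peak overlap in their intervals for each motif, and for the initiator and DREF element both lie above the bar of all genes.

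At the summits themselves the letters were searched on both strands within 100 bp on either side, and none of the searched motifs contains another. There TATCGATA was in 14 of 50 members (28%, interval 16.23 to 42.49) and 70 of 1607 promoter peaks (4.36%). GGTCACACT was in 6 members (12%) and 1.62% of promoter peaks. GAGAG, the core of the GAGA element, was in 4 members (8%, interval 2.223 to 19.23) and 25.1% of promoter peaks. TATAAA was in 12 members (24%, interval 13.06 to 38.17) and 32.7%. AGGGTA, taken from earlier results of these data, was in 0 of 50 members (upper bound 7.112%) and 6.78% of promoter peaks. ACAGTG, taken likewise, was in 5 members (10%, interval 3.328 to 21.81) and 19.4%. Of these lower shares, only that of GAGAG had an interval that left out the share of promoter peaks. In the window from 250 bases before to 50 after the start these lower shares were not all found. There ACAGTG was in 20% of members with a peak, 18.6% of members without and 14.2% of all promoters, and AGGGTA in 6%, 14% and 5.79% of the same sets. TATAAA was in 44% of members with a peak, 46.5% of members without and 45.6% of all promoters, and GAGAG in 20%, 14% and 30.3%. The windows around summits also differed in place: 86% of members' summits lay within 100 bp of a start, beside 31.4% of all promoter peaks. Their median GC content was 43.3% at members and 37.8% at all promoter peaks. The part of place and of GC content in the shares at summits, higher or lower, was not tested.

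Among genes in general these letters went with a small difference in peak share. A joint peak was at 18.2% of the 1288 genes with TATCGATA, or 17.5% of the 1260 that are not members, and at 13.4% of genes without it. For GGTCACACT the share was 19.2% of 847 genes, or 18.6% of the 837 that are not members, and 13.5% of genes without it. For CTTTNT the share was 15.6% of 398 genes, or 12.4% of the 364 that are not members, and 13.8% of genes without it. Each of these shares is below the 53.8% of the ribosomal protein genes.

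Other genes of protein synthesis were set beside the members. Of 73 mitochondrial ribosomal protein genes, 10 had a joint promoter peak (13.7%, interval 6.769 to 23.75), close to the 13.8% of all genes, though the median signal of these 10 was 411. Of 53 translation factor genes, 13 had one (24.5%, interval 13.76 to 38.28), with a median signal of 125. Of 15 nucleolar and ribosome assembly genes, 6 had one (40%, interval 16.34 to 67.71). Of 13 promoter factors and growth regulators found by symbol, 6 had one (46.2%, interval 19.22 to 74.87). The strongest of these 6 was at Adf1 (1003.7, at 787 bp). Others were at Trf2 (328, at 745 bp), M1BP (97.6, at -354 bp) and Thor (157, at -3 bp), the gene of a repressor of translation initiation. A summit at -39 bp of CG8202 had the same signal as that of M1BP. That peak therefore cannot be given to M1BP rather than CG8202. The peak was within 200 bp of the start at 7 of the 10 mitochondrial genes and 11 of the 13 translation factor genes. It was so at 3 of 6 in each of the other lists. The lists are not independent: eIF6 is counted among both the translation factors and the assembly genes. Nop60B and mRpS17 had the same signals in the joint set and in both replicates (77.6, 39.7 and 37.3). RpS6 shares its peak with bys, a gene of small subunit assembly, and RpL28 with eIF1, an initiation factor.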

How the data were processed

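The samples were 2 biological replicates of 1 group. Per the labels, the authors' regions are on dm6. Aligner and peak caller: not given in the sources used here. The deposited lists give each region a signal (peak caller's value, scale not stated), a score (capped at 1000; lowest in the joint list 830) and the −log10 of the global IDR, per the deposited column order. Summits on the 6 arms were matched to every start of protein-coding genes (Ensembl release 115) within 1000 bp, and the strongest was taken. A replicate's signal was read from its candidate region that holds the joint summit. Sequence came from the RefSeq Release 6 genome. No column belonged to an unmapped sample.

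The members, gene lists, motifs and naming rule were chosen with earlier results of these data known, so no test was run. The naming rule takes the 12 strongest members, those next to the threshold, those with no candidate region, those that differ between replicate lists and both copies of each pair. Shares have exact 95% intervals for counting error only. Neighbouring genes can share a peak. The matching was checked on simulated peaks. Python 3.11.15, pandas 2.3.3, numpy 2.4.6 and scipy 1.17.1 were used. Alternatives were the conservative list, each replicate alone, other thresholds, windows and starts, and the copies left out. The values of 1 member are counted but not reported here by name.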

Additional observations from a re-analysis of the deposited data

Results flagged for a closer look

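RpL13A had a joint candidate region of signal 153.65 at its start that meets the IDR of the joint list and is not in that list. It is outside the counts of the report for this reason. Replicate 1 gave 69.6 and replicate 2 gave 89.4 there, and neither replicate list held a promoter peak of RpL13A.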

How the results depend on the processing

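The count of 50 members with a promoter peak lay between 35 and 54 under every alternative but one. The 35 came with the joint peaks above the median signal alone, beside 1203 of all genes. At a global IDR of at most 0.001 it was 26 members, beside 1006 of all genes. Leaving out replicate 1 gave 42 members, beside 1319 of all genes, and leaving out replicate 2 gave 39, beside 1379. With the 22 members named as copies left out it was 41 of 71. With every gene of the 14 copy pairs left out, chosen after seeing the data, it was 37 of 66. A window of 2000 bp gave 54, beside 2519 of all genes, and the outermost start alone gave 50, beside 1701. With the regions that meet the IDR and are not in the list, also chosen after seeing the data, it was 51, beside 1973 of all genes. The share of summits within 200 bp of the start, 92% in the joint list, was 95.2% to 100% when a replicate was left out. The percentile of the members' median signal, 54.9 in the joint list, was 56.7 in the conservative list and 41.5 to 43.3 when a replicate was left out; set against the strongest peak of each gene in the joint list it was 49.4. In the window from 250 bases before to 50 after the start TATAAA was in 44% of members with a peak and 45.6% of all promoters, so its lower share at summits is not found there, and GAGAG was in 20% of members with a peak and 30.3% of all promoters. No paired analysis was possible because there is 1 group and no test. Depth is unknown, and a missing peak does not show that binding is absent.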
